A study of Drosophila melanogaster with 19 samples.

Results

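The comparison covered here is that of control cycle 13 embryos (C13) with control cycle 12 embryos (C12) of Drosophila melanogaster, taken over all 17735 genes of the table as the C13 value minus the C12 value. It rested on 5 of the 19 embryos of the series, 3 from C13 and 2 from C12. The embryos came from flies that carry a fluorescent histone, H2AvD-RFP. They are labelled by nuclear cycle as controls without injection, and RNA was extracted with TRIzol from each embryo alone for sequencing of polyadenylated RNA. Of the 3 embryos labelled control C12, 1 was left out of the C12 mean by the study as deviant, so C12 stood on 2 embryos. The minute within a cycle at which an embryo was collected and its sex were not given in the sources used here. Besides these groups the series holds controls from early and late cycle 14 (C14E and C14L) and embryos arrested in cycle 12 by knockdown of 3 cyclins.

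In the first hours of a fly embryo the nuclei divide in a shared cytoplasm, with no cell membranes between them, and run on RNA and protein that the mother loaded into the egg. The interphases lengthen over the last of these rapid cycles, and short genes of the zygote begin to be transcribed before the mid-blastula transition (MBT) in cycle 14, when transcription spreads to most of the genome. In parallel, RNA-binding proteins such as Smaug mark maternal mRNAs for destruction. A set of embryos one nuclear cycle apart therefore holds 2 populations of RNA, one being made and one being lost.

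The values were CPM, the reads of a gene scaled to the same total of assigned reads in every embryo. The deposited table holds the log2 of each condition's mean CPM plus 1. A difference is given below as C13 minus C12 on that scale, called the log2 difference, which understates the change of genes near 0. A gene was called higher or lower when the means differed by more than 1.5-fold on it, which is a size and not a test. Because CPM are shares of a total, a loss of maternal RNA raises the share of all other RNA, and more RNA of a gene cannot be told apart from less RNA of the rest. The decimals of the means could be solved for the reads of the single embryos, for both C12 embryos in most genes and for the 3 C13 embryos in genes up to 8 CPM. The embryos are numbered here by depth. C13 embryos 1, 2 and 3 had 53158643, 46824324 and 35957712 assigned reads, and C12 embryos 1 and 2 had 57998963 and 45945113. These single-embryo values are inferred, and the numbers are not the replicate numbers of the labels.

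By this measure 734 genes were higher in C13 (4.14% of all genes) and 1945 were lower (11.0%). Among the 6641 genes with at least 1 CPM in either mean, 713 were higher (10.7%) and 1928 lower (29.0%). Differences of more than 4-fold were found for 48 genes that were higher and 70 that were lower. The genes called higher together took 235673 CPM in C13, against 130250 CPM in C12, and the genes called lower took 98967 CPM in C13, against 191853 CPM in C12. Over the 5077 genes at 10 CPM or more in both means, the median log2 difference was -0.13. With the differences centered on that median, 1092 genes were higher and 1554 lower, so the split between the directions depends on the scaling. The call limit has no natural gap, since 112 genes lay within 0.05 above the upper limit and 117 within 0.05 below it.

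**Figure D1:**
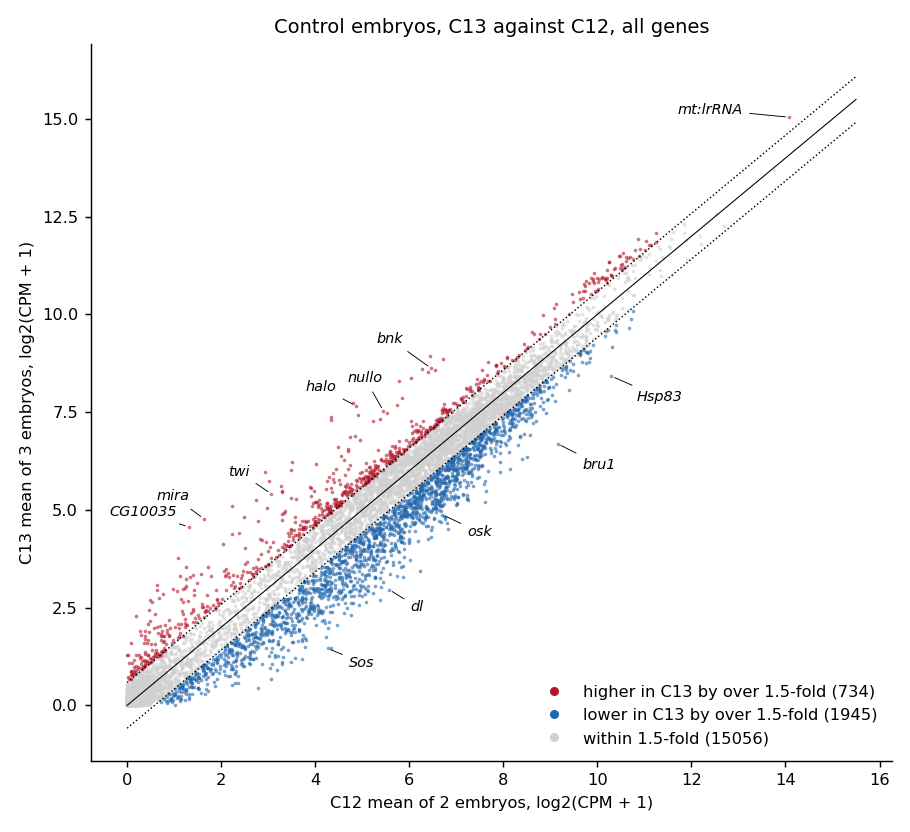
Mean level of each gene in control C13 (y axis) against control C12 (x axis), both as log2(CPM + 1), with dotted lines at 1.5-fold and the solid line at equality. The 1945 genes called lower form a broad band below the line, mostly from 1 to 1000 CPM. The 734 called higher hold a scattered group of low C12 level and a tight band of abundant genes near the upper right.

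The 2 C12 embryos also differed from each other. C12 embryo 1 was above C12 embryo 2 by more than 1.5-fold for 525 of the 17079 genes solved in both and below it for 1230. Over the 5985 solved genes with at least 1 CPM, the standard deviation of the C13 minus C12 difference was 0.74 and that of the difference between the C12 embryos 0.61, both on the log2 scale. Of the 1403 solved genes called lower with at least 10 CPM, C12 embryo 1 lay between C12 embryo 2 and the C13 mean for 1193 (85.0%), and C12 embryo 2 held the place between for 199. Of the 457 such genes called higher, C12 embryo 1 lay between for 238 (52.1%). A stricter call was therefore used beside the first, in which the C13 mean had to lie more than 1.5-fold beyond each C12 embryo. It kept 420 genes higher (2.46% of solved genes) and 1094 lower (6.41%), or 6.87% and 18.3% of the solved genes with at least 1 CPM. Whether the C12 embryos differ in their time within the cycle, in staging or in library was not tested.

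The genes with the largest rise, among those with at least 10 CPM in either mean, were mostly short genes with low levels in C12. CG10035, with no known role, headed them (chromosome arm 3R, 12380869 to 12382691, dm6). It had 22.6 CPM in the C13 mean, against 2.83 and 0.13 CPM in C12 embryos 1 and 2, a log2 difference of 3.25. Miranda (mira), an adaptor that localizes fate determinants in dividing neuroblasts, had 26.5 CPM in the C13 mean, against 4.14 and 0.044 CPM in the C12 embryos. Z600, also called fruhstart, encodes an inhibitor of mitotic cyclin and Cdk1 and is a gene of a single exon of 0.453 kb (3L, 15509061 to 15509513). It had 61.4 CPM in the C13 mean, against 11.6 and 1.61 CPM in the C12 embryos, a log2 difference of 3.04. In all of these the C13 mean was far above both C12 embryos, and C12 embryo 1 was far above C12 embryo 2.

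The others of this set ranged more widely in level. Halo, a cofactor of kinesin in the transport of lipid droplets, had 202 CPM in the C13 mean, against 50.1 and 6.05 CPM in the C12 embryos. Brother (Bro), a partner of the transcription factor Runt, reached the highest level of the 15, with 312.6 CPM in the C13 mean, against 89.1 and 18.9 CPM in the C12 embryos. Dichaete (D), a SOX-family transcription factor of segmentation, had 73.3 CPM in the C13 mean, against 20.03 and 0.52 CPM in the C12 embryos. The set also held the insulin-like peptide gene Ilp4, with a log2 difference of 2.73, and shrew (srw), a gene of dorsoventral BMP signaling, with 2.53. SNCF, CG13427, CG34214, CG43725, CG43184, CG4440 and phu made up the rest, with log2 differences from 2.51 to 3.03. All 15 passed the stricter call. With 2 C12 embryos, a rise of this size passes that call whatever their split, so passing adds no support. C12 embryo 1 was above C12 embryo 2 in all 15. Their median span was 0.608 kb and the longest was 3.32 kb.

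The genes with the largest fall were longer. CG10738 (3L, 13450770 to 13465539) had 1.74 CPM in the C13 mean, against 6.41 and 32.2 CPM in C12 embryos 1 and 2, a log2 difference of -2.89. Son of sevenless (Sos), the exchange factor that activates Ras, had 1.02, 2.26 and 1.95 CPM in the 3 C13 embryos, against 10.1 and 26.2 CPM in the C12 embryos. Dorsal (dl), the NF-kappaB factor that patterns the dorsoventral axis and whose RNA the mother supplies, had 5.19, 7.39 and 7.79 CPM in the C13 embryos, against 27.2 and 65.9 CPM in the C12 embryos. For both genes every C13 embryo lay below both C12 embryos, although the C12 embryos were themselves more than 1.5-fold apart. Both genes were picked for the size of their fall, so this order adds no support.

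Bruno (bru1), a repressor of oskar translation in the ovary, was the most abundant of the 15, with 102 CPM in the C13 mean and 569 CPM in the C12 mean, a log2 difference of -2.46. The set also held Tollo, a Toll-family receptor (-2.70), lap, a clathrin adaptor (-2.58), and the nuclear receptor Hnf4 (-2.44). Usp8, a deubiquitinase, and the zinc finger factor Cf2 stood at -2.38 and -2.39. Phf7, Dhap-at, snz, CG6967, CG12945 and CG7627 lay between -2.79 and -2.40. In the 14 genes that could be solved C12 embryo 1 was below C12 embryo 2, and all 14 passed the stricter call. As the genes were picked on the same values, passing adds no support. Their median span was 6.36 kb.

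**Figure D2:**
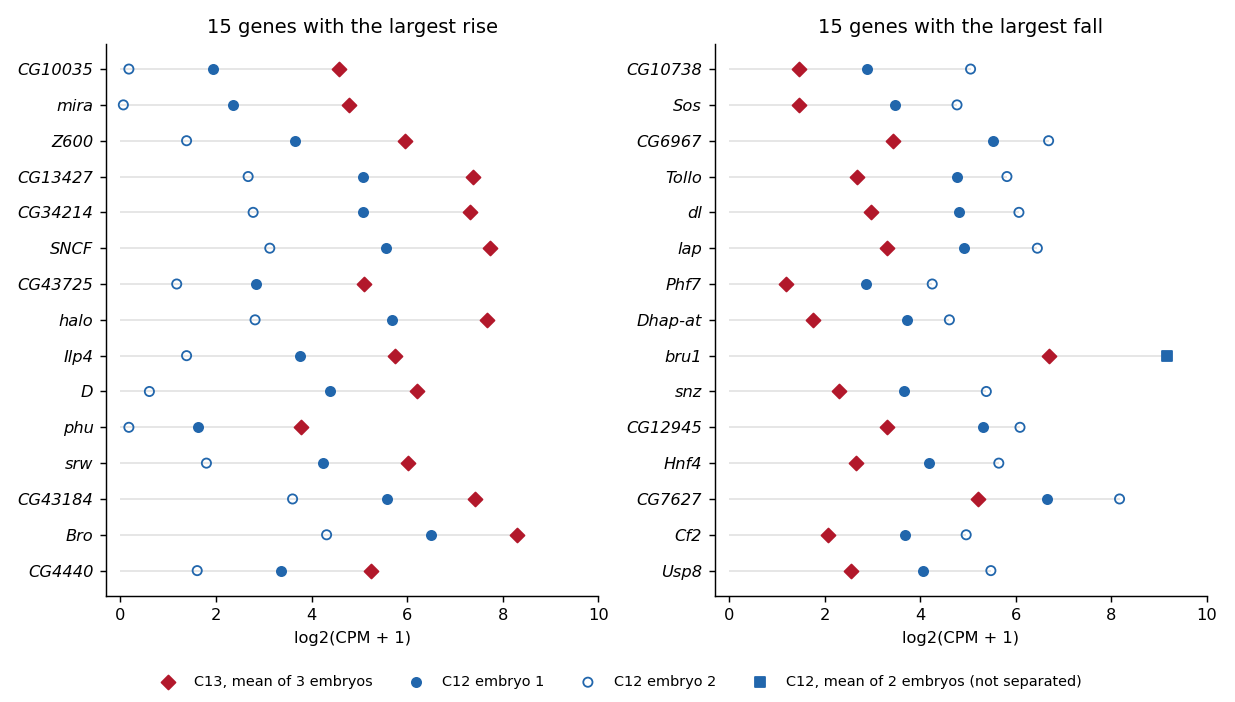
Levels of the 15 genes with the largest rise (left) and the 15 with the largest fall (right), as log2(CPM + 1) on the x axis, for the C13 mean (red diamonds) and each C12 embryo (blue circles, filled for embryo 1), with a square for the C12 mean of bru1. In every gene with separate values C12 embryo 1 lies between C12 embryo 2 and the C13 mean.

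The genes were next grouped by role, in lists written with earlier results of these data known. Some genes stand in more than one list. Beside each count the call holds for 4.14% of all genes in the higher and 11.0% in the lower direction. Most lists hold expressed genes, and for all genes that reached 1 CPM in C13 or C12 these shares are 10.7% and 29.0%, so that a list with about 30% of its members lower stands near the background. The median log2 difference of the genes that reached 1 CPM was -0.18.

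The list of first zygotic cellularization genes showed the largest median of the lists, 2.13, and 5 of 6 were higher. Cellularization is the inward growth of the first cell membranes at the MBT. Bottleneck (bnk), which restrains the closing of the furrow, had 395 CPM in the C13 mean, against 139 and 34.3 CPM in C12 embryos 1 and 2. Nullo, which stabilizes the forming basal junctions, had 184 CPM in the C13 mean, against 53.2 and 32.2 CPM in the C12 embryos. Slow as molasses (slam), required for membrane growth, had 724 CPM in the C13 mean, against 601 and 282 CPM in the C12 embryos, so it was close to C12 embryo 1. The other 2 of the 5 were halo and Z600, given above with roles other than membrane growth. They had the largest differences of the list, 2.80 and 3.04. Sry-alpha was listed at 0 in every condition, as were cup and BicC of the lists below, and such a 0 can come from reads shared by overlapping genes.

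Among the gap genes, which divide the embryo into broad domains along the anteroposterior axis, 7 of 11 were higher and 1 was lower, with a median of 1.15. Huckebein (hkb), which acts at the poles, had the largest difference of the list at 2.14, with 19.7 CPM in the C13 mean, against 6.41 and 0.96 CPM in the C12 embryos. Giant (gt) had 46.1 CPM in the C13 mean, against 19.6 and 8.49 CPM in the C12 embryos. Kruppel (Kr), the gap gene of the central trunk, had 30.6 CPM in the C13 mean, against 16.5 and 1.83 CPM in the C12 embryos. Knirps (kni), tailless (tll), buttonhead (btd) and empty spiracles (ems) were also higher, with log2 differences from 1.10 to 1.40.

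Hunchback (hb), which has maternal as well as zygotic RNA, had 210.3 CPM in the C13 mean, against 219 and 129.5 CPM in the C12 embryos, so its C13 mean lay within the range of the C12 embryos. The lower gene was cnc, a head gap gene that also has a maternal transcript, with 121 CPM in the C13 mean and 348 CPM in the C12 mean.

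The pair-rule genes subdivide these domains into the primordia of segments, and 7 of 9 were higher, with a median of 0.73. Sloppy paired 1 (slp1) had 56.2 CPM in the C13 mean, against 30.8 and 6.57 CPM in the C12 embryos. Fushi tarazu (ftz) had 43.3 CPM in the C13 mean, against 27.0 and 2.57 CPM in the C12 embryos. Even-skipped (eve) had 39.7 CPM in the C13 mean, against 22.3 and 5.99 CPM in the C12 embryos. These 3 and paired (prd) passed the stricter call. Hairy (h) and odd were called higher from the means, but hairy had 21.8 CPM in the C13 mean and 22.1 CPM in C12 embryo 1, and odd had 8.20 CPM in the C13 mean and 8.59 CPM in C12 embryo 1. Both calls therefore rested on C12 embryo 2, which had 3.44 CPM for hairy and 1.39 CPM for odd. Opa, the last pair-rule gene to be expressed, stood at 0.24 CPM in C13 and 0.10 CPM in C12.

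Of 21 zygotic genes of the dorsoventral axis 15 were higher and none was lower, with a median of 1.16, and 11 passed the stricter call. Screw (scw), a BMP ligand, had 233 CPM in the C13 mean, against 95.3 and 17.1 CPM in the C12 embryos, a log2 difference of 2.03. Twist (twi), the factor that specifies mesoderm, had 41.6 CPM in the C13 mean, against 12.8 and 1.87 CPM in the C12 embryos, a log2 difference of 2.35. Snail (sna), its partner in the mesoderm, had 35.6 CPM in the C13 mean, against 21.9 and 8.62 CPM in the C12 embryos.

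The genes of the dorsal side moved with them. Zerknullt (zen), which specifies amnioserosa, had 64.7 CPM in the C13 mean, against 38.8 and 11.2 CPM in the C12 embryos. Tolloid (tld), the protease that frees BMP ligands from their inhibitor, had 51.1 CPM in the C13 mean, against 33.4 and 6.79 CPM in the C12 embryos. Twisted gastrulation (tsg), a BMP-binding protein, had 91.6 CPM in the C13 mean, against 49.5 and 29.8 CPM in the C12 embryos. Decapentaplegic (dpp), the main BMP ligand, had 8.85 CPM in the C13 mean, against 6.17 and 0.30 CPM in the C12 embryos, and did not pass the stricter call. Low members were resolved in all 5 embryos, and the T-box gene Doc1 had 7.37, 3.01 and 6.37 CPM in the C13 embryos, against 2.14 and 0.26 CPM in the C12 embryos.

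Across the cellularization, gap, pair-rule and dorsoventral lists, 36 of the 47 genes had at least 1 CPM in either mean and could be solved. The C13 mean was above both C12 embryos in 31 of the 36, the exceptions being hb, h, odd, run and ush. Lying outside the C12 range, above or below, is common. It held for 82.3% of all 5985 solved genes with at least 1 CPM. Some genes reached 1 CPM only in C13, such as ems, with 1.44 CPM in C13 and 0.14 CPM in C12. The filter therefore favors this order, and the count is not free of it. C12 embryo 1 was above C12 embryo 2 in all 36.

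**Figure D3:**
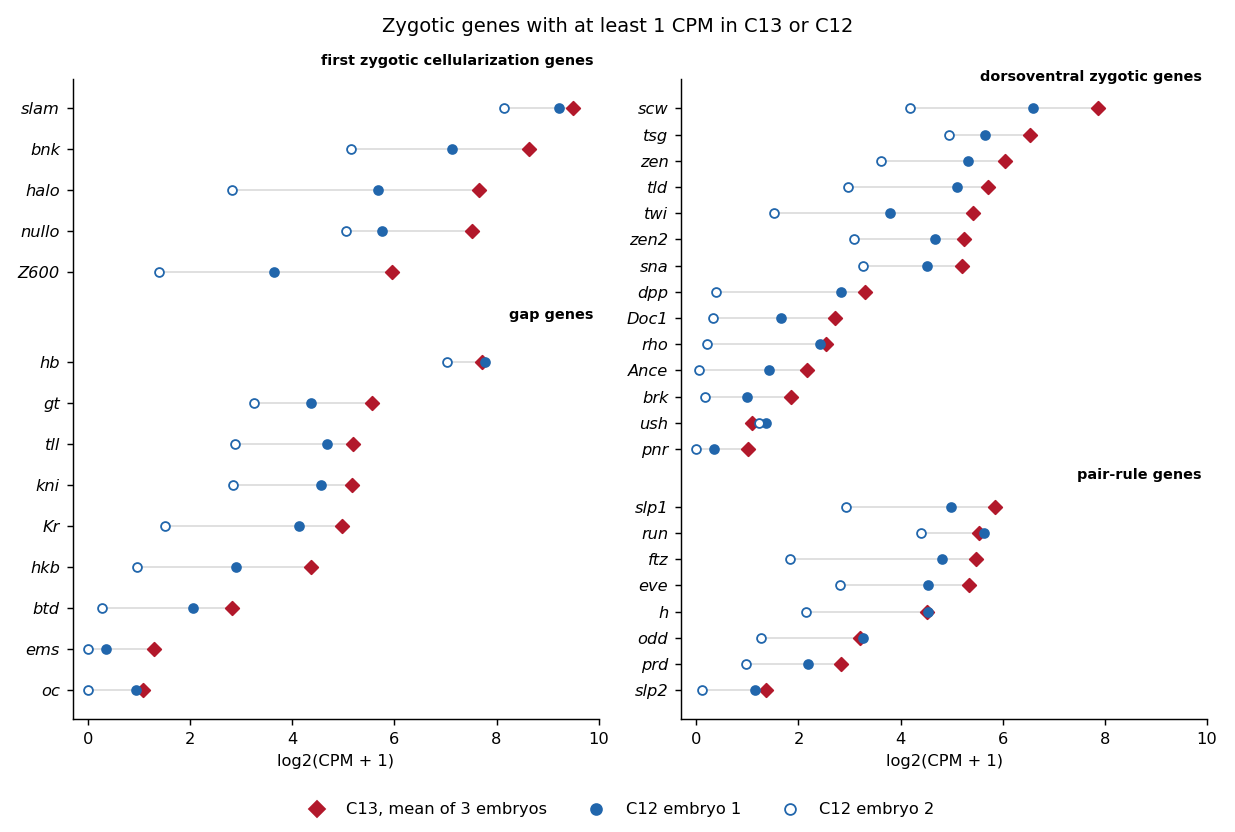
Levels of the 36 zygotic genes with at least 1 CPM and separate C12 values, as log2(CPM + 1) on the x axis, for the C13 mean (red diamonds), C12 embryo 1 (filled circles) and C12 embryo 2 (open circles), sorted by C13 level within each list. C12 embryo 2 has the lower C12 level in every row, and hb, h, odd, run and ush are the 5 rows whose C13 mean does not exceed both C12 embryos.

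Of 12 genes of the Bearded and Enhancer of split families, which modulate Notch signaling, 7 were higher, with a median of 0.70. Twin of m4 (Tom), a Bearded-family gene, had 47.4 CPM in the C13 mean, against 20.8 and 6.92 CPM in the C12 embryos. E(spl)m4-BFM and BobA of the same family had log2 differences of 1.58 and 1.49. The bHLH repressors were low, and E(spl)m7-HLH had 3.80, 1.75 and 3.23 CPM in the C13 embryos, against 1.34 and 0.44 CPM in the C12 embryos.

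The X-chromosome signal elements, whose dose sets the sex of a fly embryo before the MBT, were already expressed in C12. Of 6 genes of this system 3 were higher, the signal elements scute (sc) and upd1 and deadpan (dpn), an autosomal repressor that counters them, with log2 differences of 0.61, 0.71 and 0.84, and none passed the stricter call. Runt (run) had 45.2 CPM in the C13 mean, against 48.5 and 20.2 CPM in the C12 embryos, and sisA had 23.9 CPM in the C13 mean, against 15.1 and 22.2 CPM in the C12 embryos. Their target Sex lethal (Sxl) had 13.98 CPM in the C13 mean, against 17.1 and 16.3 CPM in the C12 embryos, a difference of -0.24.

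Genes that are switched on in cycle 14 served as a check of the labels against late cycle 14 only. Their list median was 1.52 CPM in C14E and 41.2 CPM in C14L. Low values therefore hardly separate an embryo from C14E and do not separate C12 from C13. All 12 homeotic and segment polarity genes examined were under 1 CPM in both cycles, with 0.96 CPM in C13 and 0.22 CPM in C12 as the highest means. Hedgehog (hh) and wingless (wg) were called higher from means that low. Hedgehog had 1.13, 0.47 and 1.06 CPM in the C13 embryos, against 0.26 and 0 CPM in the C12 embryos. All 15 follicle cell and eggshell genes, markers of ovarian tissue around the egg, were also under 1 CPM in both, at most 0.24 CPM in C13 and 0.12 CPM in C12.

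In the lists of germ plasm RNAs, maternal axis determinants and regulators of maternal RNA no gene was higher. The shares of lower genes in these lists ran from 80% for germ plasm RNAs to 33.3% for the regulators. The share was 29.0% among all genes that reached 1 CPM. Of the 10 RNAs of the germ plasm, the posterior cytoplasm from which germ cells form, 8 were lower, with a median of -0.73. Oskar (osk), which nucleates germ plasm, had 28.4 CPM in the C13 mean, against 70.3 and 136 CPM in C12 embryos 1 and 2. Ovo, a germline zinc finger factor, had 65.5 CPM in the C13 mean, against 232 and 327 CPM in the C12 embryos, a log2 difference of -2.08. Tudor (tud), a scaffold of germ granules, had 39.0 CPM in the C13 mean, against 123 and 136 CPM in the C12 embryos. For tud the C12 embryos lay close together, and the C13 mean was well outside them.

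Hsp83, the Hsp90 chaperone whose maternal RNA is a classical target of Smaug, had 342 CPM in the C13 mean and 1254 CPM in the C12 mean, a log2 difference of -1.87. Nanos (nos), the posterior determinant, had 63.5 CPM in the C13 mean, against 112 and 102 CPM in the C12 embryos. Vasa (vas), a helicase of the germline, had 22.2 CPM in the C13 mean, against 27.8 and 27.3 CPM in the C12 embryos, and CycB, whose RNA is also held in the germ plasm, had a difference of -0.40, so neither was called.

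Of 17 maternal determinants of the body axes 7 were lower and none was higher, with a median of -0.45. Besides dl, osk and nos these were exuperantia (exu), swallow (swa), spatzle (spz) and caudal (cad). Exuperantia, which with swallow localizes bicoid RNA in the egg, had 5.46, 7.45 and 6.79 CPM in the C13 embryos, against 11.1 and 27.1 CPM in the C12 embryos. Spatzle, the ligand of Toll, had 28.1 CPM in the C13 mean, against 62.9 and 63.8 CPM in the C12 embryos. Bicoid (bcd) itself had 256 CPM in the C13 mean, against 332 and 329 CPM in the C12 embryos, a difference of -0.37 that was within the 1.5-fold limit but outside the C12 range. The receptors Toll (Tl) and torso (tor) stood at -0.17 and -0.35.

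Among 15 regulators of maternal RNA 5 were lower and none was higher. They were osk, nos, brain tumor (brat), the deadenylase gene twin and rasputin (rin), the last 3 with log2 differences of -1.32, -0.84 and -0.89. Smaug (smg), which recruits deadenylases to maternal RNA, had 2077 CPM in C13 and 3070 CPM in C12, a difference of -0.56 just inside the limit. Of the partners of smg in translational repression, tral stood at -0.49 and me31B at 0.14. The factors that open the zygotic genome were all within 1.5-fold. Zelda (zld) had 662 CPM in C13 and 953 CPM in C12, and Clamp, psq and Trl had differences of -0.29, -0.09 and 0.16.

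Of 22 cell cycle regulators 8 were lower and 1, Z600, was higher, with a median of -0.42. String (stg), the Cdc25 phosphatase that is replaced by zygotic RNA in cycle 14, had 161 CPM in the C13 mean, against 379 and 303 CPM in the C12 embryos, a log2 difference of -1.08. Its paralog twine (twe) stood at -0.07. Dacapo (dap), an inhibitor of Cdk2, had 24.7 CPM in the C13 mean, against 71.1 and 131 CPM in the C12 embryos. The checkpoint kinase genes lok (Chk2) and grp (Chk1) had differences of -1.42 and -0.60, and the Cdk1-inhibiting kinase Myt1 had -1.31. The mitotic cyclins CycA, CycB and CycB3, the genes knocked down in the arrested embryos of the series, stood at -0.36, -0.40 and -0.28. CycE, which drives S phase, had 384 CPM in C13 and 639 CPM in C12.

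**Figure D4:**
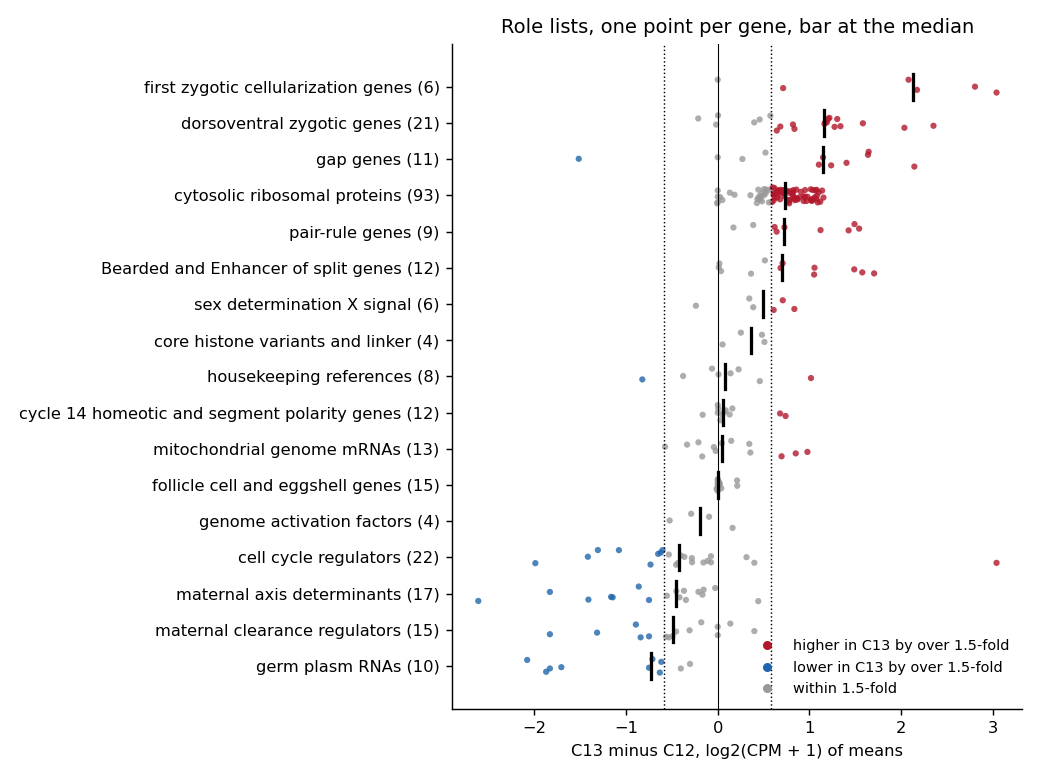
Difference of each gene between C13 and C12 (x axis, log2(CPM + 1) of the means) in 17 role lists, with list sizes in parentheses, black bars at list medians and dotted lines at 1.5-fold. Medians run from 2.13 for the cellularization genes to -0.73 for the germ plasm RNAs, with the follicle cell and eggshell genes at 0.

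Of the gene lists that the study works with, 3 were counted here, and its 3 groups of zygotic genes were not. Of 80 measured genes called N/C dependent, after the ratio of nuclei to cytoplasm, because their expression came late in haploid embryos, 32 were higher and 3 lower, with a median of 0.34. Besides mira, Z600, twi and hkb these included bangles and beads (bnb), with 71.6 CPM in the C13 mean, against 28.4 and 2.05 CPM in the C12 embryos. Of 110 genes called time dependent in the same comparison of haploid and diploid embryos, 36 were higher and 5 lower, with a median of 0.26. Innexin 3 (Inx3), a gap junction gene, had 27.4 CPM in the C13 mean, against 8.79 and 0.48 CPM in the C12 embryos. With low members at values near 0, the 2 medians were 0.75 and 0.70 at a pseudocount of 0.1. No difference between the 2 groups was tested. Of 1223 genes of the maternal list 578 were lower and 6 higher, with a median of -0.55, and 366 of the 1103 that could be solved passed the stricter call. That list was chosen in part on these samples and so is not independent evidence of its direction.

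Cytosolic ribosomal proteins build the ribosome around its RNA. Of 93 of their genes 68 were higher and none was lower, with a median of 0.73. All 83 with at least 100 CPM in C12 had a C13 mean above the C12 mean. Together the 93 genes took 18.3% of CPM in C13 and 11.0% in C12. RpL41 had 3870 CPM in C13 and 1862 CPM in C12, and RpL27A had 4343 CPM in C13 and 2424 CPM in C12. Near-identical copies such as RpS14a and RpS14b, with differences of 1.07 and 0.82, can share reads, and their split is uncertain. Only 12 of the 93 could be solved in C12, most of them low. Among these, RpL34a had 384 CPM in the C13 mean, against 179 and 194 CPM in the C12 embryos.

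These genes are short, and the difference between the cycles ran with gene length. Among genes with at least 10 CPM in both means, the median log2 difference was 0.78 for genes with under 0.5 kb of exons, 0.26 for those with 1 to 1.5 kb, -0.20 for those with 2 to 3 kb and -0.63 for those with more than 7 kb. It fell from each of the 10 length classes to the next. Across these genes Spearman's rho of exon length with the difference was -0.67. With the difference between C12 embryos 1 and 2, over those of the genes that could be solved, it was 0.17, a weaker trend. Its sign has no meaning, because the C12 embryos are numbered by depth. Genes are not independent replicates, and all share the same 5 libraries. By genomic span, 46.6% of genes under 1 kb were higher. The median span was 1.15 kb for the genes called higher, 4.61 kb for those called lower and 2.79 kb for all genes with at least 1 CPM. Genes without an intron made up 20.1% of those called higher, 4.75% of those called lower and 9.09% of all.

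**Figure D5:**
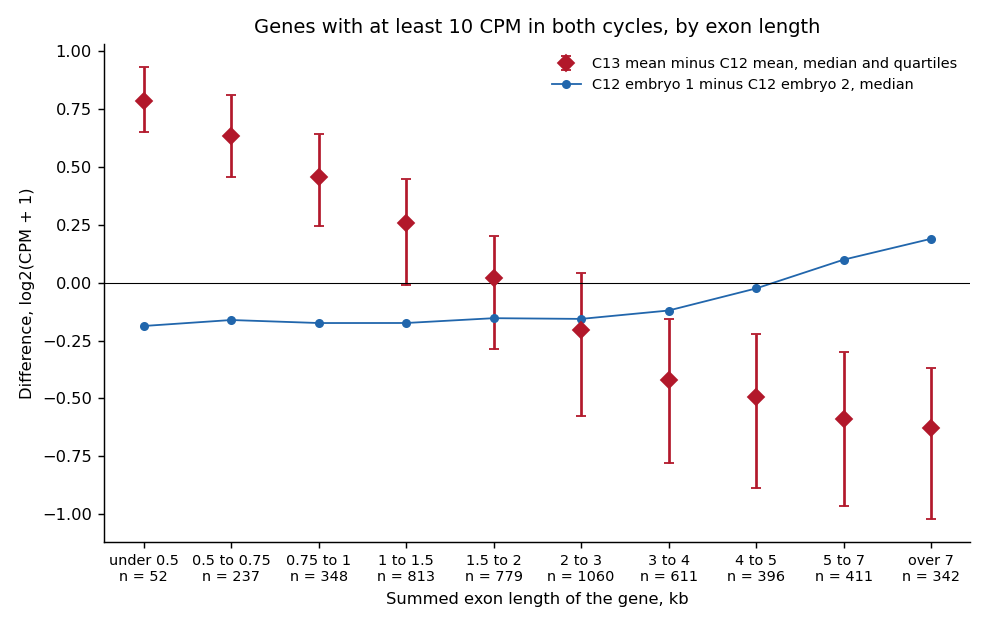
Difference in log2(CPM + 1) against summed exon length for genes with at least 10 CPM in both cycles, with the number of genes under each class, for C13 minus C12 (red diamonds, median with quartiles) and for C12 embryo 1 minus C12 embryo 2 (blue line, median). The C13 minus C12 median falls from 0.78 in the shortest class to -0.63 in the longest. The median between the C12 embryos, whose sign depends on their numbering by depth, runs from -0.19 to 0.19.

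The C13 embryos also differed from each other by length, as far as genes up to 8 CPM show it. Relative to the C13 mean, genes with under 1 kb of exons had a median log2 value of 0.35 in C13 embryo 3, -0.38 in C13 embryo 2 and -0.09 in C13 embryo 1. Genes with over 4 kb of exons had -0.30, 0.30 and -0.19 in the same embryos. Set against the C12 mean, the shortest of the 4 length classes had a median of 0.17 in C13 embryo 1, -0.09 in C13 embryo 2 and 0.56 in C13 embryo 3, and the longest had -0.85, -0.51 and -1.11. In this set the median of the shortest class in C13 embryo 2 was thus not above the C12 mean. Genes with 2 to 4 kb of exons stood lowest there, at -0.70. The genes of all 4 classes were kept for a C13 mean of 1 to 8 CPM, while C12 could be at any level. That choice pushes the values against the C12 mean down, so their sign does not show whether short genes rose. RNA integrity was not given in the sources used here, and the part of library or RNA quality in the length relation was not tested.

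Each list was therefore also read against genes of like exon length, a choice made after seeing the data. After this centering 507 genes were higher, 311 of them among the 734, and 1370 were lower, 1215 of them among the 1945. The medians were 1.77 for the cellularization genes, 1.30 for the gap genes, 0.93 for the pair-rule genes and 1.04 for the dorsoventral genes. For the germ plasm RNAs and the maternal axis determinants they were -0.76, with 5 of 10 lower, and -0.35. The cell cycle regulators moved to -0.15, with 6 of 22 lower, the clearance regulators to -0.24, with 4 of 15 lower, and the genome activation factors to 0.32, with 1 of 4 higher. Of the genes named as lower, CycE (-0.14), grp (-0.18), rin (-0.30), twin (-0.35) and nos (-0.55) no longer passed the limit. Of those named as higher to this point, sc (0.35) and the ribosomal protein genes RpS14b, RpL27A, RpL41 and RpL34a (0.19 to 0.40) did not. Ribosomal protein genes moved to 0.33, with 15 of 93 higher, the Bearded and Enhancer of split genes to 0.34, with 5 of 12 higher, and the maternal list to -0.29, with 355 lower.

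Genes up to 8 CPM in the C13 mean, where all 5 embryos could be read, allowed a test across embryos. Limma on log2(CPM + 1), with Benjamini-Hochberg adjustment over the 2207 genes with at least 0.2 CPM in either mean, called 38 genes higher (1.72%) and 172 lower (7.79%) at an adjusted p of 0.05. At an unadjusted p of 0.05 the count was 546. Since the level in C13 had to be low, a gene could fall from any level but could not rise to a high one, so the 2 counts are not comparable. Among the 1872 genes with at most 8 CPM in both means, a limit chosen after seeing the data, limma called 23 higher and 20 lower. All 3 C13 embryos lay above both C12 embryos in 277 genes (12.6%) and below both in 661 (30.0%). With at most 8 CPM in both means, the counts were 277 (14.8%) and 391 (20.9%) of 1872.

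The highest-ranked gene that rose was hll (2L, 14027001 to 14029368), with 8.75, 6.45 and 5.01 CPM in the C13 embryos, against 1.09 and 0 CPM in the C12 embryos. Its log2 difference was 2.39 ± 0.50 (SE, limma adjusted p = 0.000596). Phyllopod (phyl), an adaptor for protein degradation in neural fate, had 7.36, 4.31 and 5.28 CPM in the C13 embryos, against 1.21 and 0 CPM in the C12 embryos. Mdr49, an ABC transporter with a role in germ cell migration, had 5.32, 0.96 and 5.37 CPM in the C13 embryos, against 0.28 and 0 CPM in the C12 embryos. Every C13 embryo was above both C12 embryos in these genes. They were picked by their rank in a fit to the same values, so this order adds no support.

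CG13454, CG4702, CG10479, lncRNA:CR44504 and the cytochrome P450 gene Cyp310a1 completed the top 8, with differences from 1.996 to 2.29. Of the role lists, Doc1, Ance, btd and ems rose (limma adjusted p = 0.0165 for Doc1, 0.0395 for Ance, 0.0280 for btd and 0.0488 for ems).

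Of the genes that fell, Sos had a difference of -2.70 ± 0.51 (SE, limma adjusted p = 0.000239), and Tollo and CG10738 had the same adjusted p. Suppressor of zeste 2 (Su(z)2), a relative of the Polycomb group gene Psc, had 0.23, 0.68 and 0.17 CPM in the C13 embryos, against 2.24 and 9.62 CPM in the C12 embryos. RhoGAP100F had 2.41, 2.35 and 0.67 CPM in the C13 embryos, against 12.7 and 12.7 CPM in the C12 embryos. The rest of the top 8 were Dhap-at, Phf7 and dl, the last with a limma adjusted p of 0.00102.

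These calls depended on single embryos. Without C12 embryo 2 or without C13 embryo 3 no gene passed in either direction, with 159 and 441 genes at an unadjusted p of 0.05. Without C13 embryo 1 no gene rose and 4 fell, with 299 genes at an unadjusted p of 0.05. Without C12 embryo 1, 11 rose and 130 fell, and without C13 embryo 2, 34 rose and 109 fell. Limma treats the noise of genes as independent, whereas embryos here differed across many genes at once. The labels do not say whether the embryos came from 1 collection, so the p-values cover only these embryos. They rest mostly on a spread that limma pooled over genes of like level, not on the spread of each gene. RhoGAP100F, with 12.7 CPM in both C12 embryos, had an SE of 0.51. Sos, with 10.1 and 26.2 CPM in the C12 embryos, also had an SE of 0.51.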

How the data were processed

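Single control embryos (3 of C13, 2 of C12) were compared. Per the submitters' notes and methods, the authors trimmed reads with Trim Galore 0.6.0, aligned them to dm6 with STAR 2.5.3a, counted unique reads per gene with featureCounts of Subread 1.6.0 and scaled them with DESeq2. For each of 8 conditions the authors deposited the log2 of mean CPM, with a pseudocount of 1. No column holds a single embryo.

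Whole reads of each embryo were solved from the 9 decimals of the means, for C12 up to 2000 CPM (100% of genes up to 100 CPM and 74.1% above) and for C13 up to 8 CPM. Totals came from the table alone. At the next best totals, 38 of 40 C12 probes and 31 of 40 C13 probes had no solution. Single-embryo values carry counting error besides the spread between embryos. Differences were computed with Python 3.11.15, numpy 2.4.6 and pandas 2.3.3, and low genes were tested with limma 3.58.1 in R 4.3.3, a test checked on simulated data. Spans and exon lengths came from Ensembl 115 on the same assembly, a later release than the authors used (99.4% of genes matched).

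Genes were named by size of difference (the 15 largest each way with at least 10 CPM), by membership in role lists past the fold, by limma rank (8 each way) and as cyclins or tubulin. Members and lists were chosen with earlier results of these data known. Pseudocount, filter, fold, centering and single embryos were varied. Promoter motifs were not analyzed here. Ribosomal protein genes were described as a group, and the single values of 1 of them are not reported here.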

Additional observations from a re-analysis of the deposited data

How the results depend on the processing

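With a pseudocount of 0.1, 1566 genes were higher, and with one of 10, 382 were higher and 1280 lower. With a fold above 2, 188 were higher and 937 lower. A filter at 1 CPM, both centerings and each C12 embryo alone left the counts within 1.5 times (710 to 797 higher and 1329 to 2090 lower against a single C12 embryo). Against C12 embryo 1 alone, 3 named genes changed sign, to 0.061 for Gapdh2, -0.020 for h and -0.059 for odd, whereas against C12 embryo 2 alone they stood at -1.37, 2.36 and 1.94. No other called gene named in the text that has separate C12 values changed sign, and the remaining ones have no single-embryo value. The limma test on low genes called 63 higher with a pseudocount of 0.1, and 23 higher and 20 lower among genes with at most 8 CPM in both means. Leaving out each embryo in turn gave 0 to 34 higher and 0 to 130 lower. Where a cycle was left with 1 embryo, that embryo was assumed to vary like the others. Except for the single-embryo fits, whose construction removes samples, the cause of these changes was not tested. No paired analysis was possible because the columns are condition means and carry no replicate numbers. Single C13 embryos were read only up to 8 CPM, the highest C13 mean tried, so for more abundant genes the spread between the C13 embryos is unknown.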

Other observations

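The largest shift in CPM of any gene was that of the mitochondrial large ribosomal RNA, mt:lrRNA, with 33806 CPM in C13 and 17296 CPM in C12. The mRNAs of the mitochondrial genome were mixed, with 3 of 13 higher (mt:CoII, mt:ATPase6 and mt:ND4) and a list median of 0.04. Centered on genes of like exon length, none of the 13 was higher and 2 were lower, with a median of -0.21. In the 5 that could be solved C12 embryo 1 was below C12 embryo 2, for instance for mt:ND3, with 326 CPM in the C13 mean, against 155 and 358 CPM in the C12 embryos. Among 8 genes often used as references, RpL32 had a log2 difference of 1.02 and Gapdh2 one of -0.82, while Act5C and eEF1alpha1 stood at 0.01 and -0.06. Centered on genes of like exon length, 0 of the 8 were higher, so RpL32 lost its call, and 2 were lower.

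Of 83 noncoding genes with at least 1 CPM, 24 were higher and 5 lower, against 10.7% higher and 29.0% lower among all genes at that level. With at least 10 CPM in either mean 18 noncoding genes remained, 4 of them higher and 2 lower. Among all 5515 genes at that level 535 were higher and 1521 lower. The noncoding genes were not read against genes of like exon length. The lncRNA CR43887 (lncRNA:CR43887) had a log2 difference of 2.33. The RNA roX1 (lncRNA:roX1), a part of the dosage compensation complex of males, had 29.1 CPM in the C13 mean, against 17.1 and 1.04 CPM in the C12 embryos, with the sex of the embryos not given. In the course over control stages, the genes called higher had a median of 21.8 CPM in C12, 43.8 CPM in C13, 48.0 CPM in C14E and 39.0 CPM in C14L. The genes called lower had 42.6 CPM in C12, 19.0 CPM in C13, 11.7 CPM in C14E and 33.1 CPM in C14L.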
